A study of Homo sapiens with 6 samples.

Results

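The genes described here are 10 transcription factor and immediate early genes of growth and stress signalling, FOS, FOSB, FOSL1, FOSL2, JUN, JUNB, JUND, EGR1, ATF3 and IER2. They were chosen by name from a table of 58735 genes, and all 10 had enough counts to be tested, among 15801 tested genes. The cells were LoVo, an established line from a human colorectal cancer, and received either a control siRNA (si-NC, 3 libraries) or one that targets SRSF11 (si-SRSF11, 3 libraries) before polyadenylated RNA was sequenced. SRSF11 is a serine and arginine rich protein of the splicing machinery. Both conditions carried the transfection reagent and an siRNA, and no untransfected cells were analysed here. The siRNA sequence used for these libraries and the time between transfection and harvest are not given in the sources used here. A single cell line was used, and the labels number the libraries without saying what was grown separately, so p-values measure the spread between these samples only.

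Immediate early genes are transcribed within minutes of a growth factor or stress signal, from transcription factors that are already present in the cell, and many of their RNAs are short-lived. The proteins of the FOS and JUN families pair through leucine zippers to form AP-1, which binds DNA and switches on genes of proliferation, migration and stress response. FOS proteins need a JUN partner to bind, whereas JUN proteins can also pair with each other. EGR1 is a zinc finger factor induced by the same kinase cascades, ATF3 is a stress-induced relative that can pair with JUN proteins, and IER2 is a small nuclear protein of the same early response.

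Library totals ranged from 14369525 to 16685719 counts. SRSF11 itself (chromosome 1, 70205682 to 70253052, plus strand of GRCh38) had 1271, 1281 and 1363 counts in si-NC and 789, 789 and 807 in si-SRSF11. Its level in CPM (counts scaled to library size, with TMM factors) was 57.2% of si-NC, with an adjusted p of 6.1e-10 by edgeR's quasi-likelihood test. The table had mitochondrial mRNA shares of 6.40% to 6.61% in si-NC and 7.69% to 7.95% in si-SRSF11. At an adjusted p under 0.05 by edgeR, 12 of 13 mitochondrial mRNAs rose, against 13.2% of all tested genes. Colorectal epithelial markers had counts for 12 of 12 genes and a summed level of 6030 to 6400 CPM in si-NC and 6100 to 6540 CPM in si-SRSF11. Of these 12 genes 3 rose, against 13.2% of all tested genes. They were CDX1 (log2 fold change 0.31), CDX2 (0.40) and CEACAM6 (0.73), named after their values were seen. In 6 of the 12 every si-SRSF11 library lay above every si-NC library, as in 20% of all tested genes. Fibroblast markers summed to 19.7 to 23.1 CPM and 24.6 to 28.9 CPM with DCN and LUM at 0, endothelial markers to 1.47 to 2.56 CPM and 0.796 to 2.04 CPM with KDR at 0, and immune cell markers to 2.89 to 3.65 CPM and 4.53 to 4.91 CPM with PTPRC at 0. With the mitochondrial mRNAs left out, 8 of the 10 genes described here were called, and the part of the marker genes in the results was not tested.

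Of the 10 genes, 8 fell after SRSF11 knockdown and 0 rose at an adjusted p under 0.05 (edgeR's quasi-likelihood test, Benjamini-Hochberg over all tested genes). At an unadjusted p under 0.05, 1 gene (FOSB) was higher, and DESeq2 also called 8 lower and 0 higher. Over all tested genes 24.6% passed this threshold, 11.4% lower and 13.2% higher. The 8 genes were JUNB, EGR1, ATF3, FOS, JUN, FOSL1, JUND and IER2, and the same number was called lower with TMM, library size alone and RLE size factors. The median log2 fold change of the 10 genes, as si-SRSF11 minus si-NC, was -0.24, against 0.002 over all tested genes. In 8 genes every si-SRSF11 library lay below every si-NC library, an arrangement seen in 18.9% of all tested genes. In FOSB every si-SRSF11 library lay above, as in 20% of all tested genes, and the groups did not overlap in either direction in 38.8% of them. In RNA from bulk cells, fewer cells with a transcript and less of it per cell cannot be told apart.

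**Figure D1:**
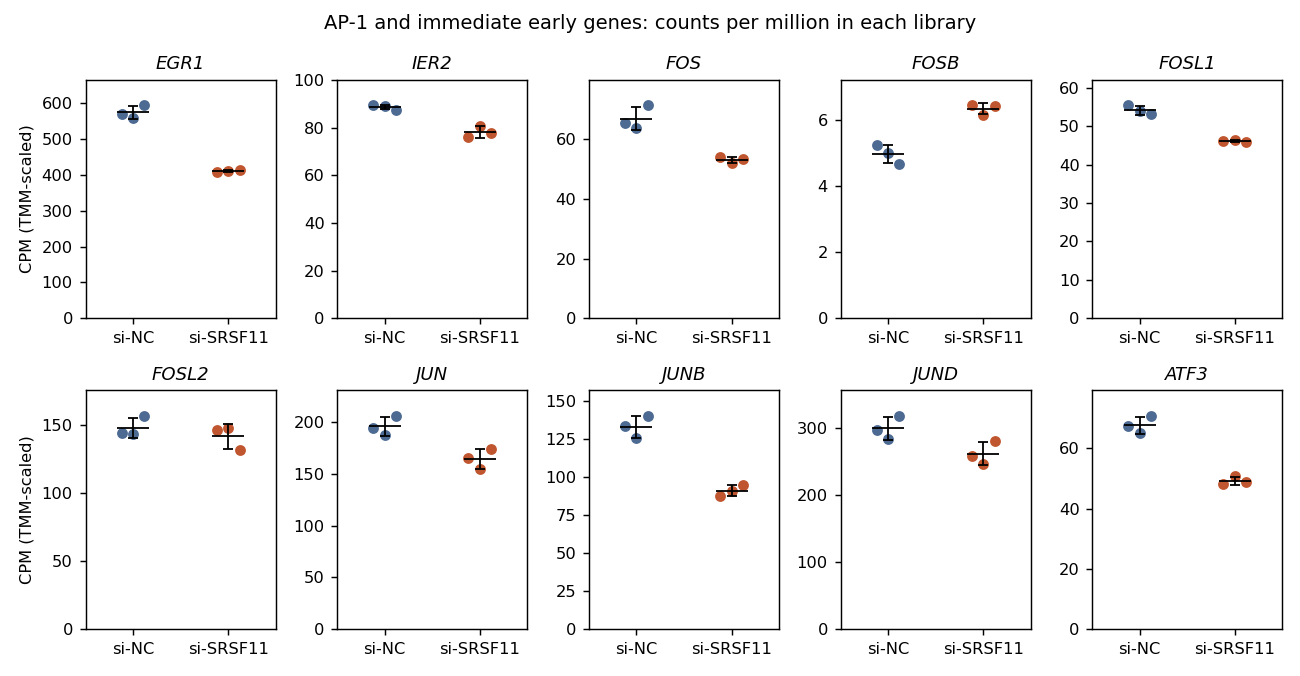
Level of each of the 10 genes in CPM (TMM-scaled, linear axis from 0, a scale of its own in each panel), with points for libraries, a long bar for the mean and an error bar for the SD of 3 libraries. EGR1 runs from 558.6 to 595.0 CPM in si-NC and from 408.7 to 413.4 CPM in si-SRSF11, while FOSL2 overlaps and FOSB lies higher in si-SRSF11.

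EGR1 (ENSG00000120738, chromosome 5, 138465490 to 138469315, plus strand) activates genes of growth and wound response. Its promoter is shown because the CArG box, the site of serum response factor by which serum and growth factors induce immediate early genes, occurs in it. The stretch is the 150 bases before the start site given by RefSeq (chr5:138465329-138465478, plus strand, GRCh38.p14), with both CArG box matches in capitals at positions -105 to -96 and -83 to -74 from the start site:
EGR1: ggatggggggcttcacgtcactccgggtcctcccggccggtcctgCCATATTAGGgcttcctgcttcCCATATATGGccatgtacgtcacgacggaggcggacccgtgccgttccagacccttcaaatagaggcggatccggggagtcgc

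The EGR1 level was 571.8, 558.6 and 595.0 CPM in the si-NC libraries and 408.7, 410.9 and 413.4 CPM in the si-SRSF11 libraries. All si-SRSF11 libraries were low, close to each other, and well apart from the si-NC libraries. The mean went from 575.1 ± 18.4 CPM to 411.0 ± 2.33 CPM (SD, n = 3 each), which is 71.5% of si-NC. The log2 fold change was -0.48 (SE 0.045), with an adjusted p of 5.5e-08 by edgeR.

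IER2 (ENSG00000160888, chromosome 19, 13150415 to 13154908, plus strand) changed less. Its level was 89.34, 89.12 and 87.47 CPM in si-NC and 75.89, 80.82 and 77.86 CPM in si-SRSF11, 88.2% of si-NC. The groups did not overlap, and the log2 fold change was -0.18 (SE 0.051, adjusted p = 0.012 by edgeR). Without si-NC replicate 1 the log2 fold change was -0.18, and the adjusted p by edgeR was 0.056, above the threshold. An annotated gene on the opposite strand, AC011446.2, shares 30.8% of the exon bases of IER2 and had 0 counts in every library. Whether reads were counted by strand is not given, so these 0 counts do not show that IER2 kept the reads of the shared bases.

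In the FOS family, FOS and FOSL1 fell, while FOSL2 and FOSB did not pass the test. FOS (ENSG00000170345, chromosome 14, 75278774 to 75282230, plus strand), the founding member of the family, has a very unstable RNA. Its level was 65.52, 63.71 and 71.32 CPM in si-NC and 53.93, 51.90 and 53.19 CPM in si-SRSF11. The lowest si-NC library stood above the highest si-SRSF11 library. The log2 fold change was -0.34 (SE 0.059, adjusted p = 0.00023 by edgeR), and the mean was 79.3% of si-NC.

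FOSL1 (ENSG00000175592, chromosome 11, 65892049 to 65900573, minus strand), which encodes FRA-1, was at 55.41, 53.85 and 53.06 CPM in si-NC and at 46.14, 46.25 and 45.97 CPM in si-SRSF11. The si-SRSF11 libraries were nearly level and all below si-NC. The mean was 85.2% of si-NC, with a log2 fold change of -0.23 (SE 0.058, adjusted p = 0.0055 by edgeR).

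FOSL2 (ENSG00000075426, chromosome 2, 28392448 to 28417312, plus strand), which encodes FRA-2, was at 144.4, 143.5 and 156.7 CPM in si-NC and at 146.7, 147.5 and 131.3 CPM in si-SRSF11. The groups overlapped, since 2 of the si-SRSF11 libraries lay above 2 of the si-NC libraries. The log2 fold change was -0.06 with a 95% interval of -0.18 to 0.05 (adjusted p = 0.43 by edgeR). FOSB (ENSG00000125740, chromosome 19, 45467995 to 45475179, plus strand) was the least abundant of the 10 genes, with 76, 76 and 73 counts in si-NC and 101, 100 and 105 counts in si-SRSF11. All si-SRSF11 libraries were higher, with a log2 fold change of 0.35 (SE 0.15, 95% interval 0.04 to 0.66), which missed the threshold (adjusted p = 0.093 by edgeR). Its counts are the fewest behind any of these estimates, and its SE was the widest.

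In the JUN family all 3 genes fell, by unequal amounts. JUNB (ENSG00000171223, chromosome 19, 12791496 to 12793315, plus strand), often a weaker activator than JUN, had the lowest log2 fold change of the 10 genes. Its promoter and that of FOS are shown because both hold a TATA box just before the start site. FOSB, which had a positive log2 fold change and did not pass the test, holds TATAAA at -30 to -25 too and is not shown. At any position and on either strand, TATAAA occurred in 11.5% of all promoter windows and 6.17% of those of tested protein-coding genes. The share with the motif at this position was not computed. Each stretch is the 150 bases before the start site given by RefSeq (GRCh38.p14, plus strand), with TATAAA in capitals, at -31 to -26 in JUNB (chr19:12791336-12791485) and at -33 to -28 in FOS (chr14:75278678-75278827):
JUNB: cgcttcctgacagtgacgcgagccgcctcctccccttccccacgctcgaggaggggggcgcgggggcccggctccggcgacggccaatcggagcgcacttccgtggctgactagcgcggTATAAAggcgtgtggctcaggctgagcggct
FOS: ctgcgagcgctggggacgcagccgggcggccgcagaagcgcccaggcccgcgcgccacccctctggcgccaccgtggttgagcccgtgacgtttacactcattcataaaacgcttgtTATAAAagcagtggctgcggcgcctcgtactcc

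JUNB was at 133.4, 125.5 and 140.3 CPM in si-NC and at 87.63, 90.89 and 94.57 CPM in si-SRSF11. The gap between the groups was wider than the range within either. The mean went from 133.1 ± 7.39 CPM to 91.03 ± 3.48 CPM (SD, n = 3 each), 68.4% of si-NC. The log2 fold change was -0.55 (SE 0.052), with an adjusted p of 9.7e-08 by edgeR. HOOK2 on the opposite strand shares 14.2% of the exon bases of JUNB, and whether reads were counted by strand is not given in the sources used here. HOOK2 was at 46.17 ± 0.974 CPM in si-NC and 46.82 ± 1.33 CPM in si-SRSF11 (SD, n = 3), with an adjusted p of 0.84 by edgeR.

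JUN (ENSG00000177606, chromosome 1, 58780788 to 58784327, minus strand), the classical AP-1 subunit, was at 194.9, 187.9 and 206.2 CPM in si-NC and at 165.4, 154.5 and 174.0 CPM in si-SRSF11. All si-SRSF11 libraries were below si-NC, with more spread than in EGR1. The mean was 83.9% of si-NC and the log2 fold change -0.25 (SE 0.052, adjusted p = 0.0011 by edgeR).

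JUND (ENSG00000130522, chromosome 19, 18279760 to 18281622, minus strand), the family member that resting cells also express, was at 296.8, 283.6 and 318.1 CPM in si-NC and at 258.7, 246.2 and 281.1 CPM in si-SRSF11. The highest si-SRSF11 library came close to the lowest si-NC library. The mean was 87.5% of si-NC and the log2 fold change -0.19 (SE 0.054, adjusted p = 0.012 by edgeR). Without si-NC replicate 3 the log2 fold change was -0.15 (adjusted p = 0.094 by edgeR), and without si-SRSF11 replicate 2 it was -0.15 (adjusted p = 0.081 by edgeR), so the call was lost in both.

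ATF3 (ENSG00000162772, chromosome 1, 212565334 to 212620777, plus strand) responds to stress of many kinds. It was at 67.25, 65.15 and 70.74 CPM in si-NC and at 47.99, 50.67 and 48.85 CPM in si-SRSF11. The groups were far apart relative to their spread. The mean was 72.6% of si-NC, and the log2 fold change was -0.46 (SE 0.058, adjusted p = 4.2e-06 by edgeR). For each of the 10 genes apart from FOSL2 the exact two-sided permutation test of log2 CPM gave p = 0.10, the smallest that 3 against 3 libraries allow, and for FOSL2 it gave p = 0.60.

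**Figure D2:**
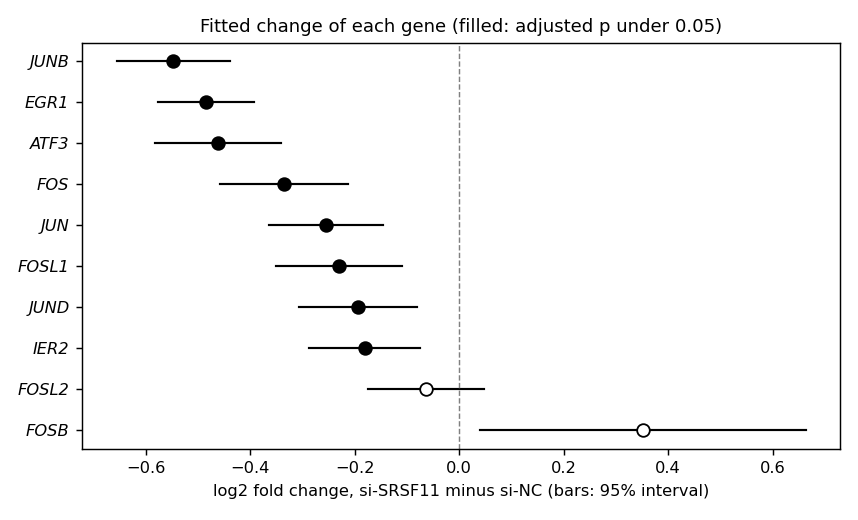
Log2 fold change (si-SRSF11 minus si-NC) of each of the 10 genes with its 95% interval, from edgeR. The estimates run from -0.55 in JUNB to 0.35 in FOSB, and the interval of FOSL2 holds 0.

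Levels of different genes were compared per kilobase of exon (RPKM). The length was that of all annotated exons of a gene. It was 4040 bases for ATF3, 3238 for FOS and 5553 for FOSB, against 2033, 2158 and 3775 in their longest coding transcript. For EGR1, JUN, JUNB and JUND both lengths were the same. The ranks and family shares below depend on this length, and they were not computed with transcript lengths. The levels of IER2 and JUNB also depend on whether reads of the bases they share with other genes were counted, which is not given. In si-NC EGR1 stood first in every library and JUND second, whereas in si-SRSF11 JUND stood first in every library and EGR1 second. EGR1 was at 183.3 ± 5.87 RPKM in si-NC and 131.0 ± 0.741 RPKM in si-SRSF11, and JUND at 160.8 ± 9.36 RPKM and 140.6 ± 9.50 RPKM (SD, n = 3). The per-library values of EGR1 in si-SRSF11 were 130.2, 131.0 and 131.7 RPKM and those of JUND 138.8, 132.1 and 150.9 RPKM, so that the lead of JUND was narrow in replicate 2. JUNB ranked 3 and JUN 4 in every library, ATF3 9 and FOSB 10. IER2 (28.85 ± 0.334 RPKM in si-NC) and FOSL1 (28.67 ± 0.634 RPKM) did not differ beyond their spread in si-NC, and neither did FOSL2 (20.71 ± 1.03 RPKM) and FOS (20.65 ± 1.23 RPKM).

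**Figure D3:**
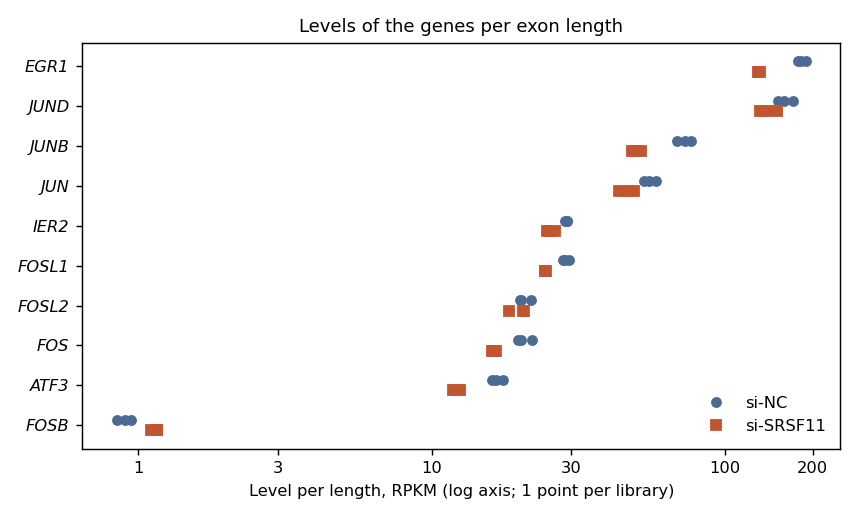
RPKM of the 10 genes in each library on a log axis, by condition. EGR1 at 183.3 RPKM is above JUND at 160.8 RPKM in si-NC, and JUND at 140.6 RPKM is above EGR1 at 131.0 RPKM in si-SRSF11.

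Within the JUN family the summed level was 289.3 ± 16.0 RPKM in si-NC and 237.1 ± 13.5 RPKM in si-SRSF11. JUNB made up 25.48%, 25.15% and 25.18% of this sum in si-NC and 20.61%, 22.13% and 20.62% in si-SRSF11. Its share was lower in every si-SRSF11 library than in every si-NC library, and the share of JUND went from 55.6% to 59.3% while that of JUN was 19.2% and 19.6%. Within the FOS family the sum was 70.92 ± 1.88 RPKM in si-NC and 61.77 ± 1.31 RPKM in si-SRSF11. FOS took 29.1% and 26.5% of it, FOSL1 40.5% and 39.6%, FOSL2 29.2% and 32.1%, and FOSB 1.26% and 1.85%. The shares are given as a description, and no test was run on them.

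The spread between libraries of a condition differed among these genes. For EGR1 the SD of log2 CPM was 0.046 in si-NC and 0.0082 in si-SRSF11, and for FOSL1 it was 0.032 and 0.0043. Over the 6389 tested genes with a mean log2 CPM of at least 5 the median SD was 0.050 in si-NC and 0.068 in si-SRSF11. FOS (0.085), JUND (0.084), JUNB (0.080), FOSL2 (0.071), JUN (0.068) and ATF3 (0.060) were above that median in si-NC, and JUND (0.097), FOSL2 (0.095) and JUN (0.086) were above it in si-SRSF11. In si-NC replicate 3, 7 of the 10 genes were above their group mean, and in si-NC replicate 2, 8 were below it. The median deviation of the 10 genes was 0.068 log2 CPM in si-NC replicate 3, against 0.004 over all tested genes. In si-NC replicate 2 it was -0.05, against -0.003. The share of all tested genes above or below their group mean was not computed.

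The 10 genes differ in structure, and several are compact. In the longest coding transcript of GENCODE 29 their median number of exons was 3, against 9 over 12703 tested protein-coding genes, and 5 of the 10 had at most 2 exons, against 6.94% of those genes. JUN, JUNB, JUND and IER2 have a single exon in that transcript and EGR1 has 2, while FOS, FOSB, FOSL1, FOSL2 and ATF3 have 4, and the ATF3 gene spans 55444 bases. Since the list was chosen by name, these shares describe the list only.

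The pentamer ATTTA, the core of AU-rich elements that shorten the life of an RNA, occurs in the 3′ UTR of 9 of the 10 genes, against 70.3% of the 12703 genes. Per kilobase the median was 1.68 against 1.52. FOS held 5 pentamers in 806 bases, JUNB 2 in 500 bases and FOSL2 9 in 4864 bases, while IER2 held none in 1050 bases. Windows from FOS, FOSL2, JUNB and EGR1 are shown so that the overlapping pentamers of FOS can be seen beside windows with a pair (FOSL2) or 1 pentamer (JUNB and EGR1). Each is 30 bases of the plus strand on GRCh38, from GENCODE 29 transcripts, with the pentamers in capitals, at chr14:75282058-75282087, chr2:28416349-28416378, chr19:12793060-12793089 and chr5:138469064-138469093 in the order given:
FOS: tgtgtttttaATTTATTTAttaagatggat
FOSL2: attgacATTTAttttattATTTAttttaaa
JUNB: atatatttgtgtATTTAacagggaggggaa
EGR1: ctgaaaatgtaaATTTAtaaatatattcag
The pentamers per kilobase of all 10 genes, in the order of their log2 fold changes from the lowest, were 4.0 for JUNB, 0.81 for EGR1, 2.45 for ATF3, 6.2 for FOS, 2.33 for JUN, 1.5 for FOSL1, 1.47 for JUND, 0 for IER2, 1.85 for FOSL2 and 1.39 for FOSB. No test was run on this order.

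Promoter windows of 300 bases, from 250 bases before to 50 bases after the start site, were found in RefSeq (GRCh38.p14) for 9 of the 10 genes, with 2 windows for ATF3 and none for FOSL1. Each motif was searched on both strands, and overlapping matches were counted. TATAAA occurred in 4 of the 10 windows, those of FOS, FOSB, JUNB and ATF3, against 11.5% of all 35116 windows and 6.17% of 14672 windows of tested protein-coding genes. The match in FOSB lay at -30 to -25, just before the start site as in FOS and JUNB. That in ATF3 lay at -230 to -225, far from the start site. The CArG box occurred in EGR1 alone, against 1.29% of all windows. The AP-1 site TGACTCA occurred in FOSL2 alone (4.95% of all windows), the CRE TGACGTCA in JUND alone (1.85%), and the EGR1 site GCGGGGGCG in none (5.07%). The absence of a match says only that these letters are not in the window.

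Most other immediate early genes that passed the test were lower too. Of 34 tested genes of a list of 36, 20 fell and 1 rose (61.8% called, against 24.6% of all tested genes), with a median log2 fold change of -0.19, against 0.002 over all tested genes. ZFP36, which binds AU-rich elements and promotes decay, went from 204.5 ± 9.99 CPM to 117.7 ± 11.7 CPM (SD, n = 3), a log2 fold change of -0.80 (adjusted p = 2.9e-09 by edgeR). CTGF (log2 fold change -0.65, adjusted p = 4.3e-09 by edgeR) and CYR61 (-0.56, adjusted p = 5.6e-08 by edgeR), both secreted matricellular proteins, and the nuclear receptor NR4A1 (-0.49, adjusted p = 3.4e-06 by edgeR) also fell. The gene that rose was MYC, a growth-promoting transcription factor, from 264.8 to 306.6 CPM (log2 fold change 0.21, adjusted p = 0.0035 by edgeR), and it was named after its values were seen. Without si-NC replicate 3, 13 of the genes passed the test.

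Other leucine zipper proteins, only some of which can pair with FOS or JUN proteins, were listed together as AP-1 partners. Of 14 tested genes of 18, 5 fell and 1 rose (42.9% called, against 24.6% of all tested genes), with a median log2 fold change of -0.09, and 3 passed without si-NC replicate 1. The small MAF proteins, which lack a transactivation domain, all fell: MAFF from 122.3 ± 1.31 CPM to 87.81 ± 4.65 CPM (log2 fold change -0.48, adjusted p = 4.3e-07 by edgeR), MAFG with -0.44 (adjusted p = 7.5e-07 by edgeR) and MAFK with -0.46 (adjusted p = 8.5e-07 by edgeR). ATF1, a CREB family activator, rose with a log2 fold change of 0.26 (adjusted p = 0.014 by edgeR). The other genes that fell, named after their values were seen, were NFIL3 (-0.30, adjusted p = 0.022 by edgeR) and MAFA (-0.49, adjusted p = 0.023 by edgeR).

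Kinases of the MAP kinase cascades, ternary complex factors, and serum response factor (SRF) with its cofactors MRTFA and MRTFB act upstream of these genes. Their list is named after the kinases and ternary complex factors. Of 27 tested genes of 28, 3 rose and 2 fell with TMM (18.5% called, against 24.6% of all tested genes), and 3 rose and 6 fell with library size alone. The median log2 fold change with TMM was -0.06. RPS6KA4, a kinase that phosphorylates histone H3 at immediate early genes, rose from 91.19 ± 1.79 CPM to 115.1 ± 5.69 CPM (log2 fold change 0.34, adjusted p = 4.1e-05 by edgeR). The ternary complex factors, which bind with serum response factor at CArG boxes, differed in direction. ELK4 rose (log2 fold change 0.30, adjusted p = 0.0058 by edgeR), ELK3 rose (0.32, adjusted p = 0.0090 by edgeR) and ELK1 fell (-0.20, adjusted p = 0.0085 by edgeR). SRF, which was named after its values were seen, fell with a log2 fold change of -0.20 (adjusted p = 0.012 by edgeR). Without si-NC replicate 1, 3 of the 27 genes passed, and without si-SRSF11 replicate 1, 8 passed.

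Among 20 factors that bind AU-rich elements or degrade RNA, 2 rose and 1 fell with TMM (15% called, against 24.6% of all tested genes), and 1 rose and 2 fell with library size alone. The median log2 fold change with TMM was -0.01. The gene that fell was ZFP36, described above, which the list of immediate early genes also holds. Its relative ZFP36L1 rose from 112.2 ± 0.847 CPM to 135.5 ± 4.77 CPM (log2 fold change 0.27, adjusted p = 0.00021 by edgeR), and HNRNPD, an AU-rich element binding protein, had a log2 fold change of 0.15 (adjusted p = 0.038 by edgeR) with overlapping groups. Without si-SRSF11 replicate 1, 5 of the 20 genes passed.

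Of 31 textbook AP-1 targets, 22 were tested, 6 fell and 2 rose (36.4% called, against 24.6% of all tested genes), with a median log2 fold change of -0.09. The cell cycle inhibitor CDKN1A went from 457.0 ± 7.93 CPM to 319.6 ± 23.8 CPM (SD, n = 3), a log2 fold change of -0.52 (adjusted p = 1.9e-07 by edgeR). Lower too were cyclin D1 (CCND1), with a log2 fold change of -0.33 (adjusted p = 1.1e-05 by edgeR), and the haem-degrading enzyme HMOX1, with -0.42 (adjusted p = 3.7e-05 by edgeR). The genes that rose, named after their values were seen, were the cytokines CXCL8 and IL6. CXCL8 went from 28.16 to 33.18 CPM (adjusted p = 0.020 by edgeR). IL6 went from 0.569 to 1.26 CPM (adjusted p = 0.036 by edgeR). Its counts were 6, 8 and 12 in si-NC and 17, 19 and 25 in si-SRSF11. IL6 met the count filter by its si-SRSF11 libraries and would not have met it by si-NC alone, so its call rests on few counts. DESeq2 called 6 of the targets lower and 0 higher.

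**Figure D4:**
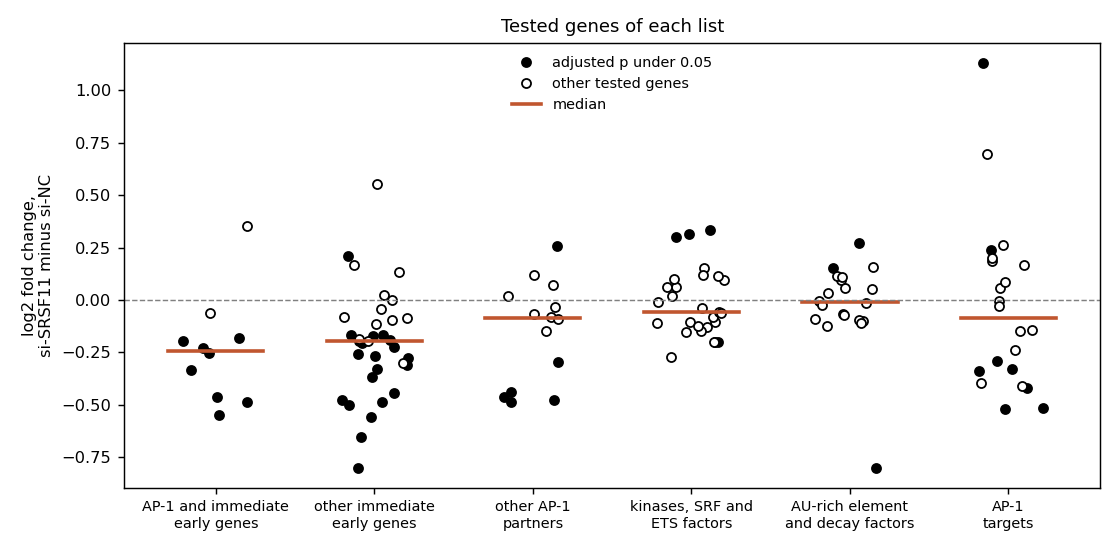
Log2 fold change (si-SRSF11 minus si-NC) of each tested gene of the 10 genes and of 5 lists of related genes, with filled points for an adjusted p under 0.05, open points for the other tested genes and a bar for the median. The medians are -0.24 for the 10 genes, -0.19 for other immediate early genes, -0.09 for AP-1 partners, -0.06 for upstream kinases and ternary complex factors, -0.01 for decay factors and -0.09 for textbook AP-1 targets.

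By the Euclidean distance of log2 CPM centred on the mean of the 6 libraries, the genes most like EGR1 among 10929 other protein-coding genes were SLC25A35 (distance 0.051), ATF3 (0.065) and MPZL3 (0.065). Those most like JUNB were SEPHS2 (0.056), TMEM134 (0.086) and CDC25A (0.087), and those most like ATF3 were EGR1 (0.065), SLC25A35 (0.070) and RETREG2 (0.071). All 6 libraries share the contrast, so closeness describes a similar size of change and a similar small spread.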

How the data were processed

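Polyadenylated RNA of LoVo cells was sequenced by the authors as paired-end reads, in 3 si-NC and 3 si-SRSF11 libraries. The authors deposited raw counts per gene in 1 table of 58735 genes, on build hg38 per the labels; the aligner, the counting program and the use of strand are not given in the sources used here. Gene coordinates of the 10 genes matched GENCODE 29. Samples were grouped by the labels.

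The filter required 10 counts in 3 or more libraries and left 15801 genes. After TMM scaling, condition was tested alone with edgeR 4.0.16 (R 4.3.3, glmQLFit and glmQLFTest), with Benjamini-Hochberg adjustment over all tested genes and a threshold of 0.05. SE and 95% intervals came from the quasi-likelihood F statistic. Log2 CPM used a prior count of 2. Replicate libraries differed by more than counting error (chi-square per degree of freedom 2.09 to 5.47 within a condition, 12.5 to 15.8 across conditions). Alternatives were DESeq2 1.42.0, library size alone, RLE size factors, other filters, leaving out single libraries, and a block for replicate number. An alternative without the mitochondrial mRNAs, scaled by library size alone, was chosen after the data were seen.

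Simulated data for this comparison held 15801 genes, 200 of them changed. Of the tested genes, 65.3% with a log2 fold change of -0.5 and 85.4% with -1 were called. The shares were 58% with 0.5 and 88% with 1, beside 8 of 15364 unchanged genes. In the data 3885 genes were called, far more than were changed in the simulation, so its shares need not hold there. Named genes are SRSF11, the 10 genes, at most 4 members of each list with the smallest adjusted p under 0.05, and the 3 genes most like each of the 3 genes with the smallest p. A gene that this rule names and a marker gene are not reported here. The genes and lists were chosen with earlier results of these data known, and support nothing by their choice.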

Additional observations from a re-analysis of the deposited data

How the results depend on the processing

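Across 13 alternatives, 127 of 130 fits of the 10 genes kept their direction and their side of the threshold, and the exceptions are the losses of JUND and IER2 given above. The number of the 10 genes called was 8 under each alternative that kept all libraries, and 7 to 8 with a library left out. With the replicate number as a block, 8 of the 10 genes were called, 8 upstream kinases and ternary complex factors (5 without the block), and 4036 of all tested genes (3885 without it). The labels do not say what a number shares, so the numbers were not taken to pair the libraries. Over all tested genes same-numbered libraries deviated together by r = 0.015, 0.036 and 0.04, and each library correlated best with its own number. Genes with few counts enter these r, so low values cannot exclude pairing. Single genes differed in how far same-numbered libraries deviated together. JUND deviated by -0.012, -0.077 and 0.089 log2 CPM in si-NC and by -0.016, -0.088 and 0.104 in si-SRSF11. FOSL2 deviated by -0.036, -0.045 and 0.082 and by 0.051, 0.059 and -0.109. With the block the adjusted p by edgeR was 0.0020 for JUND (0.012 without it) and 0.42 for FOSL2 (0.43 without it). With library size alone 9 upstream kinases and ternary complex factors were called, and over all tested genes 1588 were higher and 2286 lower, against 2081 and 1804 with TMM. With a library left out, the genes called ranged from 13 to 21 for other immediate early genes, 3 to 5 for AP-1 partners (6 with all libraries), 3 to 8 for upstream kinases and ternary complex factors, 2 to 5 for decay factors (3 with all libraries), 6 to 8 for AP-1 targets and 2741 to 3871 for all tested genes. DESeq2 called 2994 of all tested genes and 8 of the 10. The cause of these differences was not tested. Without the mitochondrial mRNAs the log2 fold change of EGR1 was -0.50 and that of JUNB -0.56. FOSB had the fewest counts of the 10 genes, and its adjusted p by edgeR or DESeq2 ranged from 0.093 to 0.23 over the alternatives.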
